A study of Mus musculus with 31 samples.

Results

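The DNA methylation writers, erasers and readers are 9 genes that were picked by symbol from the 55379 genes counted in the mammary gland at lactation day 10. The writers were *Dnmt1*, *Dnmt3a*, *Dnmt3b* and the *Dnmt1* partner *Uhrf1*, the erasers were *Tet1*, *Tet2* and *Tet3*, and the readers were *Mbd1* and *Mbd2*. All 9 had enough counts to be tested. RNA was taken from 31 C57BL/6 dams (C57BL/6J by the study's methods), 1 library each. The breeder diet held 4 mg/kg folic acid (FA) and the FA diet 24 mg/kg, and each was given from 2 weeks before mating on. Dams of both diets were injected from embryonic day 13 to lactation day 10 with saline or with fluoxetine, an inhibitor of serotonin reuptake, at 20 mg/kg/d. By the labels, 8 dams had breeder diet + saline, 7 breeder diet + fluoxetine, 8 FA diet + saline and 8 FA diet + fluoxetine. The study's methods place the smaller group under FA diet + fluoxetine, and the labels were followed. All dams were pregnant and lactating and all were injected, so no group was free of handling.

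DNA methylation in mammals is mostly found on the cytosine of CpG dinucleotides. After replication, Uhrf1 binds CpG sites that carry the mark on the old strand only and brings Dnmt1 there, which copies the mark to the new strand, while Dnmt3a and Dnmt3b set new marks. The Tet enzymes oxidize methylcytosine, a step towards its removal, and the Mbd proteins bind methylated CpG and recruit repressors. The methyl group comes from S-adenosylmethionine, which is regenerated with folate as a carrier of one-carbon units. These libraries measured RNA of the genes, and neither methylation nor the proteins.

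CpG sites before a RefSeq start of the member genes themselves differ widely in number, and those of 5 members are shown because CpG is the unit that these genes write, erase and read. *Tet3*, *Uhrf1* and *Tet1* are shown as the members with the smallest p in the diet or fluoxetine comparison. *Dnmt1* and *Dnmt3a* are shown as examples of few and of many CpG before the RefSeq start nearest to the start of the gene. RefSeq's promoter table (GRCm38.p6) holds 7 of the 9 members. The sequences come from the 250 bases before a RefSeq start, placed on GRCm39 by exact match and trimmed to the longest stretch outside annotated exons. Each is written 5′ to 3′ on the strand of its gene, with every CpG in capitals.
Tet3: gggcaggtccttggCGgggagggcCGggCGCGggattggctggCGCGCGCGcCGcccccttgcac
Uhrf1: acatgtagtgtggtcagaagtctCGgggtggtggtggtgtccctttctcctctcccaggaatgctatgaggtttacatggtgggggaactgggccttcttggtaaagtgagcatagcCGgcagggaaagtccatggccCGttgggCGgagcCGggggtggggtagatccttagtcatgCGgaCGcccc
Tet1: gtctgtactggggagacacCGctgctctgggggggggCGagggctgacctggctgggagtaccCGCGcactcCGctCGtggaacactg
Dnmt1: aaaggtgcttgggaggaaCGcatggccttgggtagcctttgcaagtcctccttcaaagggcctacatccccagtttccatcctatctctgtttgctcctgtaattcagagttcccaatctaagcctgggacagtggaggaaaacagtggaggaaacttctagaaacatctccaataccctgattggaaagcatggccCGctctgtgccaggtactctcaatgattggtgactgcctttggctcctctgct
Dnmt3a: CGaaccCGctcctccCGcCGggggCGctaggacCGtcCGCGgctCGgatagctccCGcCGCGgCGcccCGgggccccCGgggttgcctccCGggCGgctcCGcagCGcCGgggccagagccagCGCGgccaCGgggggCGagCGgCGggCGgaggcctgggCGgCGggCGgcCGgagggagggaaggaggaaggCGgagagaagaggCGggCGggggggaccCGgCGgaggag
They lie at chr6:83418661-83418725 on the minus strand (*Tet3*), chr17:56610087-56610274 on the plus strand (*Uhrf1*), chr10:62723104-62723191 on the minus strand (*Tet1*), chr9:20871185-20871434 on the minus strand (*Dnmt1*) and chr12:3856730-3856962 on the plus strand (*Dnmt3a*). The RefSeq starts used for *Tet3* and *Tet1* lie 17406 and 21672 bases inside the gene spans given here from GENCODE. The full 250 bases held 17 CpG for *Tet3*, 10 for *Uhrf1*, 15 for *Tet1*, 2 for *Dnmt1* and 38 for *Dnmt3a*. The median over 32851 promoters was 6. The window of *Tet2*, with 51 CpG the richest of the members, lies within an annotated exon and is not printed. *Dnmt1* has further RefSeq starts, with 7 and 26 CpG in the bases before them. *Dnmt3a* has others with 40 and 15 CpG, and *Uhrf1* has another with 30. The contrast between *Dnmt1* and *Dnmt3a* thus depends on the start, and which starts the gland uses was not tested. The letters TTCCCGC or TTGGCGC, found on either strand in promoters that bind E2F factors, stood in the 250 bases of 1 member, *Uhrf1*, and in 5.62% of all promoters. The match lay in the part of the *Uhrf1* window that an exon covers, so that it is not printed. A match of letters is a description and not a binding site.

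Total counts per library ranged from 15412542 to 36000439, and the 20 most abundant genes held 39.3% to 81.0% of them. Expression is given in CPM, counts scaled to library size after TMM normalization, which sets libraries against each other. Markers of the secretory epithelium such as caseins were present in all dams. Dam 3 of FA diet + fluoxetine stood apart, with secretory markers at 0.0826 times the median dam, stromal markers at 7.41 times and leukocyte markers at 3.63 times. In it the 20 most abundant genes held 39.3% of counts, and TMM scaled it strongly. Its 925 *Dnmt1* counts among 18919573 became 16.2 CPM. In dam 4 of that group, 435 among 22465259 became 16.3 CPM. The CPM and fold values of dam 3 rest on this scaling. In whole glands, fewer cells of a type and less RNA per cell cannot be told apart.

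The readers were the most abundant members per length of exon and *Tet1* the least. *Mbd2* (ENSMUSG00000024513, GRCm39 chromosome 18 from 70701260 to 70762203), a reader that joins the NuRD repressor complex, had 3.50 ± 0.552 CPM per kb (SD, n = 31). *Mbd1* (ENSMUSG00000024561, chromosome 18 from 74400676 to 74415803), which also binds CpG without the mark through its CXXC domain, had 2.76 ± 1.02 CPM per kb. *Dnmt1* (ENSMUSG00000004099, chromosome 9 from 20817945 to 20871184) had 1.44 ± 0.348 CPM per kb. The maintenance enzyme was thus the leading writer, and among the erasers *Tet3* led. *Tet3* (ENSMUSG00000034832, chromosome 6 from 83339355 to 83436066) had 1.04 ± 0.240 CPM per kb. *Dnmt3a* (ENSMUSG00000020661, chromosome 12 from 3856007 to 3964443) had 0.320 ± 0.0962 CPM per kb. *Tet2* (ENSMUSG00000040943, chromosome 3 from 133169436 to 133250900) had 0.277 ± 0.0758 CPM per kb. The 3 least abundant members were a partner, a writer and an eraser. *Uhrf1* (ENSMUSG00000001228, chromosome 17 from 56610275 to 56630489) had 0.248 ± 0.312 CPM per kb. *Dnmt3b* (ENSMUSG00000027478, chromosome 2 from 153490861 to 153529650) had 0.131 ± 0.0829 CPM per kb. *Tet1* (ENSMUSG00000047146, chromosome 10 from 62640349 to 62744775) had 0.0746 ± 0.0400 CPM per kb.

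Of the 8 steps in this order, those from *Mbd1* to *Dnmt1* and from *Tet3* to *Dnmt3a* were larger than 1 SD of the difference within dams. *Tet3* stood above *Dnmt3a* in 31 of 31 dams, by 1.69 ± 0.525 (SD) as a log2 difference of levels per kb. *Mbd1* stood above *Dnmt1* in 30 of 31, by 0.91 ± 0.500. For the other neighbours the mean difference was smaller than 1 SD, which is a measure of spread and not a test. *Mbd2* stood above *Mbd1* in 26 of 31 dams and *Dnmt1* above *Tet3* in 26 of 31. The step from *Uhrf1* to *Dnmt3b* held in the fewest, 18 of 31 dams. With the longest transcript as the length the order was the same, and the step from *Mbd2* to *Mbd1* also exceeded 1 SD.

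**Figure D1:**
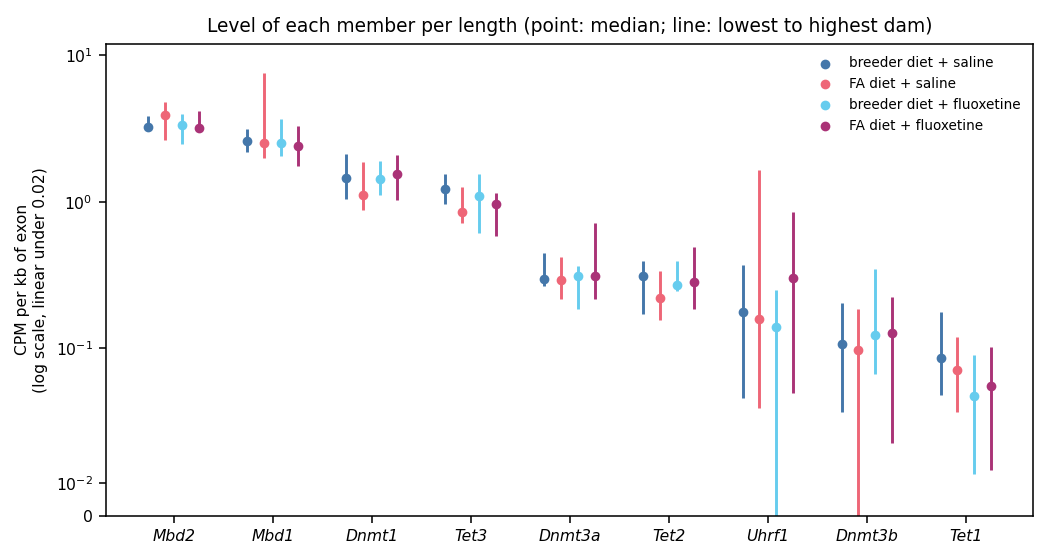
Level of the 9 members in CPM per kb of exon (vertical axis, logarithmic above 0.02 and linear below), for the 4 groups by color. Points are medians over dams and lines run from the lowest to the highest dam; *Mbd2* leads and *Tet1* is lowest, and the lines of *Uhrf1* and *Dnmt3b* reach 0 in a group each.

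The question put first was whether FA supplementation altered the members. At an FDR of 10%, edgeR's quasi-likelihood test called 0 of the 9 members between 16 dams of the FA diet and 15 of the breeder diet, where it called 0 of all 14362 genes tested (0%). The likelihood ratio test and DESeq2 also called 0 members. An unadjusted p of at most 0.05 was reached by 2 members, *Tet3* with the lower and *Uhrf1* with the higher level under the FA diet, beside 5.08% of all genes. The share for all genes was 2.12% in the lower and 2.95% in the higher direction. The median log2 fold change was -0.061 over the members and 0.017 over all genes tested, with 4 members above 0 and 5 below.

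*Tet3* had the smallest diet p of the members. Its level ran from 16.1 through a median of 20.3 to 25.7 CPM in breeder diet + saline and from 11.9 through 14.3 to 21.0 CPM in FA diet + saline. In breeder diet + fluoxetine it ran from 10.2 through 18.3 to 25.7 CPM, and in FA diet + fluoxetine from 9.68 through 16.2 to 19.1 CPM. The groups overlapped in both drug arms, and 3 of 16 FA dams lay above the breeder median of their own arm. Means were 19.5 ± 3.82 CPM in the 15 breeder diet dams and 15.2 ± 3.0 CPM in the 16 FA dams (both SD). The FA diet stood at 0.782 times the breeder diet (95% interval 0.671 to 0.911), a log2 fold change of -0.36 (standard error 0.109, n = 31, unadjusted p = 0.00248, adjusted p = 0.933 by edgeR's quasi-likelihood test). When single dams were left out, the change lay between -0.41 and -0.31 and the unadjusted p stayed at 0.00701 or below. Without dam 3 of FA diet + fluoxetine it was -0.38, and among the saline dams -0.43.

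The *Tet3* counts carry a limit, since 1512 of its exonic bases overlap *Bola3* on the opposite strand and the strand option of the counting was not given in the sources used here. Without strand, reads of the shared bases cannot be told apart. *Bola3* had 6.62 ± 2.06 CPM in the 15 breeder diet dams and 8.01 ± 1.73 CPM in the 16 FA dams (both SD), a log2 fold change of 0.27 (n = 31, p = 0.0539, adjusted p = 0.933 by edgeR). Its difference thus had the opposite sign to that of *Tet3*.

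*Uhrf1*, which directs Dnmt1 to newly copied DNA, varied most between dams. In breeder diet + saline it ran from 0.242 through a median of 0.932 to 1.95 CPM and in FA diet + saline from 0.207 through 0.832 to 8.65 CPM. In breeder diet + fluoxetine it ran from 0 through 0.733 to 1.33 CPM, and in FA diet + fluoxetine from 0.262 through 1.58 to 4.51 CPM. The highest dam of all, dam 3 of FA diet + saline, held 242 of the 1005 *Uhrf1* counts, and the other dams of its group lay between 0.207 and 1.36 CPM. In the 2 breeder diet + fluoxetine dams with 0 counts, 3 counts would be 0.118 and 0.202 CPM, a limit that covers counting error only. The diet log2 fold change was 1.05 (standard error 0.516, 95% interval 0.0011 to 2.1, n = 31, p = 0.0498, adjusted p = 0.933 by edgeR). The *Uhrf1* value was 0.43 (n = 30, p = 0.347) once this dam 3 was left out, and it had a p of 0.05 or below in 13 of the 31 fits that left 1 dam out. Of the FA dams, 9 of 16 FA dams lay above the breeder median of their arm.

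Genes of cell division stood beside *Uhrf1*. Of 20 proliferation genes, 18 had a positive diet log2 fold change, with a median of 0.38 against 0.017 for all genes. An unadjusted p of 0.05 or below was reached by 1 of the 20 (*Tyms*, a thymidylate synthase), beside 5.08% of all genes. Their summed level ran from 70.1 to 87.1 CPM in breeder diet + saline, from 54.0 to 93.4 CPM in breeder diet + fluoxetine, from 61.2 to 144 CPM in FA diet + saline and from 54.0 to 137 CPM in FA diet + fluoxetine. The highest sum belonged to the same dam 3 of FA diet + saline, at 1.80 times the median dam. Without it, 13 of the 18 proliferation genes then tested had positive diet values, with a median of 0.18. The part of cell division in the *Uhrf1* values was not tested.

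The other writers differed little between diets relative to their spread. *Dnmt1* had 12.5 ± 2.57 CPM in the 15 breeder diet dams and 12.1 ± 3.35 CPM in the 16 FA dams (both SD), a log2 fold change of -0.061 (95% interval -0.31 to 0.18). The interval leaves room for a change of the *Dnmt1* level to between 0.808 and 1.14 times the breeder diet. *Dnmt3a* had 5.32 ± 1.08 and 5.57 ± 2.06 CPM, a log2 fold change of 0.072 (95% interval -0.22 to 0.36). That of *Dnmt3a* was -0.052 without dam 3 of FA diet + fluoxetine. *Dnmt3b* had 0.934 ± 0.617 and 0.697 ± 0.379 CPM and the widest interval after *Uhrf1*, with a log2 fold change of -0.42 (95% interval -1.17 to 0.32). It had 546 counts over all dams, and in the FA diet + saline dam with 0 counts, 3 counts would be 0.146 CPM.

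The remaining erasers and the readers also missed the threshold. *Tet2*, the eraser best known from blood cells, had 5.26 ± 1.21 CPM in the 15 breeder diet dams and 4.57 ± 1.42 CPM in the 16 FA dams (both SD), a log2 fold change of -0.20 (n = 31, p = 0.152). Without dam 3 of FA diet + fluoxetine, in which *Tet2* was highest, it was -0.29 (n = 30, p = 0.0296). *Tet1* had 1.23 ± 0.755 and 1.08 ± 0.472 CPM, a log2 fold change of -0.074 (95% interval -0.64 to 0.49). All 3 Tet genes thus had values below 0, of which that of *Tet3* alone had an interval that did not reach 0. *Mbd2* had 29.2 ± 3.62 and 32.4 ± 5.47 CPM, a log2 fold change of 0.15 (95% interval -0.026 to 0.32, n = 31, p = 0.0933). Of the 16 FA dams, 6 had more *Mbd2* than every breeder dam. Without dam 3 of FA diet + saline, the *Mbd2* difference was 0.18 (n = 30, p = 0.0325). *Mbd1* had 30.4 ± 5.53 and 31 ± 15.2 CPM, a log2 fold change of 0.014 (95% interval -0.28 to 0.31), or -0.15 without that dam.

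**Figure D2:**
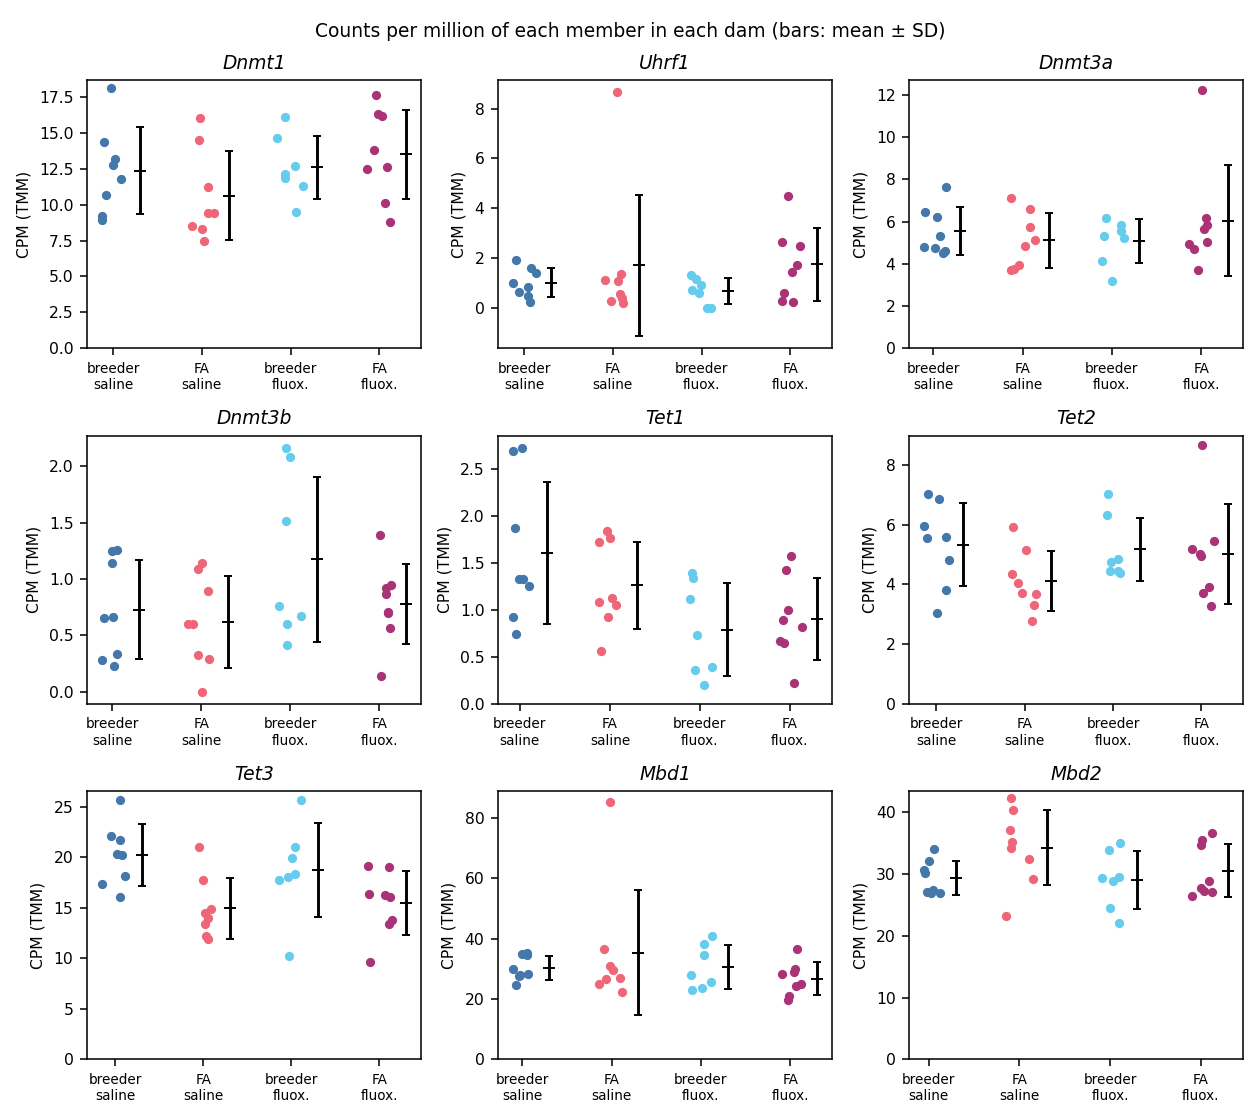
CPM of each member (vertical axis of each panel, after TMM normalization) in each dam (points), by diet and injection, with mean ± SD as bars. *Tet3* means lie at 20.2 and 15 CPM for breeder and FA dams under saline and at 18.7 and 15.5 CPM under fluoxetine; 1 FA diet + saline dam stands alone for *Uhrf1* and *Mbd1*.

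Fluoxetine was compared with saline over both diets. By edgeR's quasi-likelihood test 0 of the 9 members were called at an FDR of 10%, beside 3 of all 14362 genes (0.0209%). The likelihood ratio test and DESeq2 also called 0 members, where they called 45 and 70 of the 14362 genes. In the quasi-likelihood test 1 member, *Tet1*, had an unadjusted p of 0.05 or below, beside 9.92% of all genes (6.94% in the higher and 2.98% in the lower direction). In breeder diet + saline *Tet1* ran from 0.744 through a median of 1.33 to 2.73 CPM, and in breeder diet + fluoxetine from 0.197 through 0.729 to 1.39 CPM. In FA diet + saline it ran from 0.566 through 1.10 to 1.85 CPM, and in FA diet + fluoxetine from 0.217 through 0.854 to 1.58 CPM. The groups overlapped, with 4 of 15 fluoxetine dams above the saline median of their diet and 4 below every saline dam. Means were 1.44 ± 0.631 CPM in the 16 saline dams and 0.851 ± 0.453 CPM in the 15 fluoxetine dams (both SD). Fluoxetine dams stood at 0.593 times the saline dams (95% interval 0.401 to 0.875), a log2 fold change of -0.76 (standard error 0.277, n = 31, unadjusted p = 0.00996, adjusted p = 0.406 by edgeR). When single dams were left out, it lay between -0.85 and -0.67, and the unadjusted p stayed at 0.0211 or below. Among breeder diet dams alone the *Tet1* value was -1.03. Their means were 1.61 ± 0.755 CPM under saline and 0.789 ± 0.496 CPM under fluoxetine (both SD). The FA dams lay closer together, at 1.26 ± 0.463 and 0.906 ± 0.438 CPM (both SD). *Tet1* is a rare transcript here, with 812 counts over the 31 dams.

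The other members had fluoxetine p-values above 0.13. *Dnmt1* had 11.5 ± 3.09 CPM in the 16 saline dams and 13.1 ± 2.67 CPM in the 15 fluoxetine dams (both SD), a log2 fold change of 0.19 (n = 31, p = 0.132). *Dnmt3b* had 0.671 ± 0.412 and 0.962 ± 0.581 CPM, a log2 fold change of 0.50 (n = 31, p = 0.181). Both of these writers had positive values. That of *Dnmt3a* was 0.057, and -0.071 without dam 3 of FA diet + fluoxetine. That of *Uhrf1* was -0.29, and 0.34 without dam 3 of FA diet + saline. For the readers the log2 fold changes were -0.20 for *Mbd1* (-0.034 without dam 3 of FA diet + saline) and -0.094 for *Mbd2*. For the remaining erasers they were 0.12 for *Tet2* (0.029 without dam 3 of FA diet + fluoxetine) and -0.030 for *Tet3*. For *Tet3* the 95% interval of the fluoxetine effect ran from -0.25 to 0.19.

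Whether the diet effect depended on fluoxetine was tested as an interaction. EdgeR's quasi-likelihood test called 0 of 9 members at an FDR of 10% (0% of all genes), with 0 at an unadjusted p of 0.05 or below, beside 3.84% of all genes. The likelihood ratio test and DESeq2 also gave 0 and 0. The difference between the fluoxetine effects on the FA and the breeder diet was smallest relative to its error for *Dnmt3b* at -0.35 (95% interval -1.84 to 1.15) and had the smallest p for *Mbd1* at -0.42 (n = 31, p = 0.149). For *Tet3* it was 0.16 (95% interval -0.28 to 0.60) and for *Tet1* 0.56 (95% interval -0.56 to 1.68). Intervals of this width do not show that the effects were alike in both arms.

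**Figure D3:**
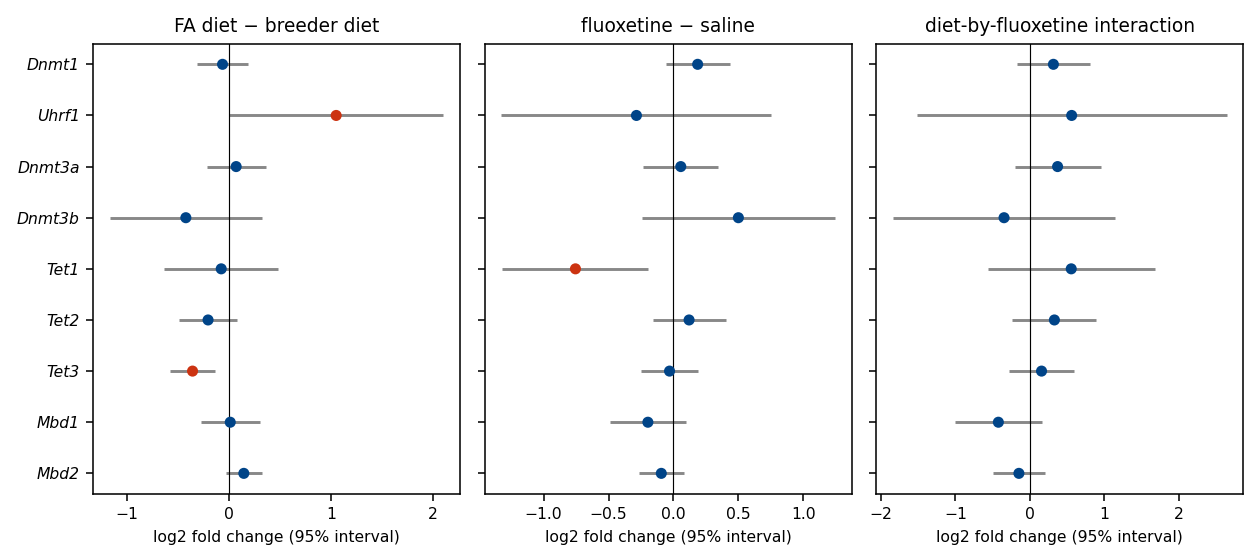
Log2 fold change (horizontal axis) of each member with its 95% interval for diet, fluoxetine and their interaction. Points in red have an unadjusted p of 0.05 or below: *Uhrf1* and *Tet3* for diet and *Tet1* for fluoxetine, and none for the interaction; 0 points passed an FDR of 10%.

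Over the 31 dams of all groups, the members differed in how much they varied. *Mbd2* was steadiest, with a coefficient of variation of 15.8% over the 31 dams, followed by *Tet3* with 23.2% and *Dnmt1* with 24.1%. That of *Uhrf1* was 126%. The biological coefficient of variation that edgeR fitted to *Uhrf1* was 0.94, against a trend of 0.57 for genes of its abundance. That of *Mbd1* (0.286 against 0.284) also lay above the trend, and those of the other members lay below it, such as *Mbd2* (0.18 against 0.28) and *Tet3* (0.22 against 0.28).

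Members were then compared in pairs over the 31 dams, as deviations of log2 CPM from the group mean. Of 36 pairs, 2 passed an adjusted p of 0.10 in a two-sided permutation test with 100000 resamples, and both were negative and held *Mbd2*. *Dnmt1* and *Mbd2* had a Pearson r of -0.50 (permutation p = 0.00408, adjusted p = 0.0923) and a Spearman rho of -0.50 (permutation p = 0.00499, adjusted p = 0.0898). Without the 2 dams farthest from the *Dnmt1* median their r was -0.54. It was -0.43 among saline and -0.60 among fluoxetine dams. *Dnmt3a* and *Mbd2* had a Pearson r of -0.49 (permutation p = 0.00513, adjusted p = 0.0923) and a Spearman rho of -0.54 (permutation p = 0.00227, adjusted p = 0.0817). Without the 2 dams farthest from the *Dnmt3a* median their r was -0.48. With the share of the 20 most abundant genes regressed out, r was -0.40 and -0.26 in the order given, and 0 pairs passed. Without dam 3 of FA diet + saline r was -0.43 and -0.45, and again 0 pairs passed.

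**Figure D4:**
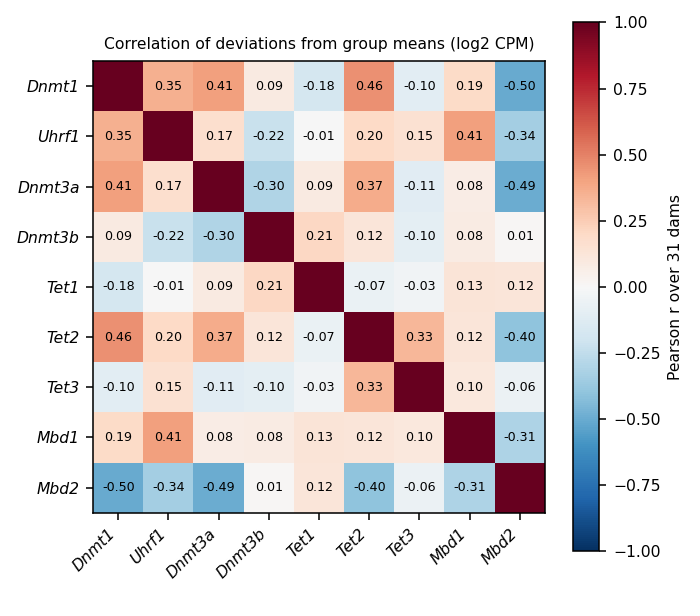
Pearson r of the deviations of log2 CPM from group means for each pair of members over 31 dams, from blue (negative) to red (positive). The *Mbd2* row holds the values of -0.50 with *Dnmt1* and -0.49 with *Dnmt3a*; 21 of 36 pairs are positive.

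Outside the members, the genes most like each of them over the 31 dams were looked up by the same deviations, as a description. *Uhrf1* was most like *Top2a*, a topoisomerase of dividing cells (r = 0.72), and *Ran*, a nuclear transport GTPase (r = 0.68). *Tet3* was most like *Rab5b*, an endosomal GTPase (r = 0.83), and *Abhd14b* (r = 0.79). *Tet1* was most like *Slc25a44*, a mitochondrial carrier of branched-chain amino acids (r = 0.69), and *Tbck* (r = 0.68). *Dnmt1* was most like *Prrc2a* (r = 0.80) and *Plekhg3* (r = 0.79), *Dnmt3a* most like the imprinted *Grb10* (r = 0.84) and *Fam110d* (r = 0.83), and *Tet2* most like *Rnf44* (r = 0.84) and *Dip2a* (r = 0.77). The partners of *Dnmt3b* were *Gm4613* (r = 0.62) and *Adgrf2* (r = 0.61). Those of *Mbd1* were *Dnajb13* and *Srek1* (both r = 0.67), and those of *Mbd2* were *Tmem192* (r = 0.72) and *Nfib*, a transcription factor (r = 0.69). Without dam 3 of FA diet + fluoxetine, r was 0.74 for *Grb10* and 0.76 for *Fam110d*. For *Rnf44* and *Dip2a* it was 0.80 and 0.70, and for *Gm4613* and *Adgrf2* 0.56 and 0.57. Mean levels of *Gm4613* and *Adgrf2* were only 0.375 and 0.317 CPM. The genes most like *Uhrf1* were not looked up without dam 3 of FA diet + saline, in which *Uhrf1* was highest. These r are the highest of a search over all genes tested, and all points share libraries and depth.

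The rest of the pathway was read from 60 further genes of DNA methylation, demethylation with its repair steps, and methyl-CpG reading, of which 56 were tested. For diet 0 passed an FDR of 10% by edgeR or DESeq2, and 3 had an unadjusted p of 0.05 or below, 1 higher and 2 lower, beside 5.08% of all genes, all from the list of readers and their partners. *Chd3*, a NuRD helicase that partners Mbd2, had 75.2 ± 24.4 CPM in the 15 breeder diet dams and 57.1 ± 17.5 CPM in the 16 FA dams (both SD) (log2 fold change -0.41, n = 31, p = 0.00801). *Mta2*, another NuRD subunit, had 22.9 ± 3.30 and 19.8 ± 2.21 CPM (log2 fold change -0.21, n = 31, p = 0.0142). *Klf4*, a transcription factor that can bind methylated CpG, had 1.93 ± 0.737 and 3.23 ± 3.6 CPM (log2 fold change 0.71, n = 31, p = 0.0088, and 0.32 without dam 3 of FA diet + fluoxetine). Median diet log2 fold changes were 0.058 for 9 other writers and partners, -0.035 for 22 demethylation and repair genes and 0.012 for 25 readers and partners, beside 0.017 for all genes.

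For fluoxetine 0 of the 56 passed an FDR of 10% by edgeR's quasi-likelihood test, which called 3 of all 14362 genes. By DESeq2 1 passed, *Gadd45a*, where that test called 70 of the 14362 genes. In the edgeR test 4 of them, 3 higher and 1 lower, reached an unadjusted p of 0.05, beside 9.92% of all genes. *Gadd45a*, a stress gene linked to active demethylation, had 0.747 ± 0.522 CPM in the 16 saline dams and 1.73 ± 1.86 CPM in the 15 fluoxetine dams (both SD), a log2 fold change of 1.25 (n = 31, p = 0.00126, adjusted p = 0.299 by edgeR and 0.0979 by DESeq2). Without dam 3 of FA diet + fluoxetine it was 0.83. *Smug1*, a uracil glycosylase named after its value was seen, had a log2 fold change of -0.41 (n = 31, p = 0.00528). *Dmap1*, a Dnmt1-associated protein, had 0.26 (n = 31, p = 0.0457), and 0.20 with n = 30 (p = 0.105) without dam 3 of FA diet + fluoxetine. *Chd4*, the main NuRD helicase, had 0.21 (n = 31, p = 0.0309), and 0.14 with n = 30 (p = 0.0875) without that dam. For the interaction 3 of the 56 had such a p, beside 3.84% of all genes, namely *Klf4* (1.48), *Gadd45b* (1.44) and *Chd4* (0.41), which were named after their values were seen. These values were 0.68, 0.60 and 0.27 without dam 3 of FA diet + fluoxetine, and that of *Klf4* alone kept a p of 0.05 or below.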

How the data were processed

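Polyadenylated RNA of 31 mammary glands was sequenced, 1 library per dam. The deposited values were raw counts per Ensembl gene, which the authors made with FastQC (0.11.7), Trim Galore (0.4.4), Hisat2 to GRCm39 and htseq-count (intersection-nonempty). The annotation release and strand option were not given in the sources used here. The files have no rows outside genes. Symbols came from GENCODE vM39.

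Counts were analysed in R (4.3.3) with edgeR (4.0.16): filterByExpr by group left 14362 genes, libraries were normalized by TMM, and 4 group means were fitted with robust estimates. Contrasts were diet, fluoxetine and interaction, with the quasi-likelihood test and Benjamini-Hochberg adjustment over all genes tested (FDR 10%). Log2 CPM carry a prior count of 2. DESeq2 (1.42.0) was an alternative. The common dispersion was 0.169. Permutation tests used numpy (2.4.6), with ranks from scipy (1.17.1). The script was tested on simulated data.

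The members and 15 companion lists were chosen with earlier results of these data known. Named were the members, their 2 most alike genes, and from each list up to 3 genes with a diet p of 0.05 or below and 1 such gene for fluoxetine.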

Additional observations from a re-analysis of the deposited data

Results flagged for a closer look

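In each group of 7 or 8 dams, each member's highest and lowest dam were compared with the nearest other dam by Dixon's criterion. Chance alone meets it in about 5% of groups if values are normally distributed. The CPM were not transformed, and the share for skewed values such as those of *Uhrf1* was not tested. Of 36 tests, 4 met the criterion, from 2 dams. In dam 3 of FA diet + saline, *Uhrf1* had 8.65 CPM (next dam 1.36) and *Mbd1* 85.2 CPM (next dam 36.6), and the proliferation genes summed to 144 CPM, the highest of 31 dams. In dam 3 of FA diet + fluoxetine, *Dnmt3a* had 12.3 CPM (next dam 6.18) and *Tet2* 8.69 CPM (next dam 5.46), and in that dam the secretory markers were lowest and the stromal, leukocyte and adipocyte markers highest of all dams. The part of these markers in the values was not tested.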

How the results depend on the processing

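Under each alternative tried, 0 members passed an FDR of 10% in the comparisons it was run for, and 31 further fits without 1 dam each gave 0 for diet and fluoxetine. The number of members at an unadjusted p of 0.05 or below for diet was 1 in place of 2 among saline dams, with no filter on low counts, without the 20 most abundant genes and with the replicate block. Leaving out single dams gave 1 to 2 for diet, with 1 without each of 16 dams (dams 1, 2, 3, 6, 10 and 12 of breeder diet + saline, 5, 6, 7, 8 and 9 of breeder diet + fluoxetine, 5 of FA diet + saline, and 1, 4, 10 and 12 of FA diet + fluoxetine), and 1 to 2 for fluoxetine, with 2 without dam 5 of FA diet + saline. With the replicate block the interaction had 1 member, *Tet1* (1.52, n = 31, p = 0.0480), in place of 0. The number of pairs past the threshold was 0 in place of 2 with the share of abundant genes regressed out and without dam 3 of FA diet + saline, the latter chosen after seeing the data.

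Reversed signs concerned members that missed the threshold. Among saline dams the diet value of *Dnmt3a* was -0.11, and without dam 3 of FA diet + fluoxetine -0.052. Among breeder diet dams the fluoxetine values were -0.13 for *Dnmt3a*, -0.045 for *Tet2* and 0.014 for *Mbd1*, and without dam 3 of FA diet + fluoxetine that of *Dnmt3a* was -0.071. With the replicate block, diet gave 0.45 for *Tet1*, fluoxetine 0.45 for *Uhrf1* and 0.13 for *Tet3*, and the interaction 0.60 for *Dnmt3b* and -0.14 for *Tet3*. The block also moved the fluoxetine values of *Tet1* to -1.33 (n = 31, p = 0.00206) and *Dnmt3b* to 0.027, and the diet values of *Dnmt3b* to -0.018 and *Uhrf1* to 0.43. Leaving out single dams, diet values ran from -0.052 to 0.11 for *Dnmt3a*, from -0.16 to 0.025 for *Tet1* (positive without dam 10 of breeder diet + saline or dam 7 or 9 of breeder diet + fluoxetine) and from -0.15 to 0.056 for *Mbd1* (negative without dam 3 of FA diet + saline, dam 5 of FA diet + fluoxetine, dam 2 of breeder diet + saline or any of dams 2, 5 and 8 of breeder diet + fluoxetine). Fluoxetine values ran from -0.071 to 0.099 for *Dnmt3a*, from -0.47 to 0.34 for *Uhrf1* and from -0.077 to 0.013 for *Tet3* (positive without dam 4 of FA diet + saline, dam 6 of FA diet + fluoxetine or dam 9 of breeder diet + fluoxetine). The cause was not tested. The animal numbers recur between groups. Of 28 same-numbered pairs, 12 correlated above 0.1, and their median r was 0.079, beside -0.0070 for other pairs. Of 27 dams, 4 were closest to their own number. The main fit did not pair dams by number, and these values do not settle whether they were paired. The least abundant members, *Uhrf1*, *Dnmt3b* and *Tet1*, had 1005, 546 and 812 counts over all dams and biological coefficients of variation of 0.94, 0.63 and 0.49.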

Other observations

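Genes near the pathway were read in the same fits, and 0 passed an FDR of 10% by edgeR or DESeq2 for diet or fluoxetine. Of 22 genes of methyl donor supply, 18 were tested and 4 had an unadjusted diet p of 0.05 or below, beside 5.08% of all genes. *Mat2a*, a synthetase subunit for S-adenosylmethionine, had 34.5 ± 6.37 CPM in the 15 breeder diet dams and 29.4 ± 4.07 CPM in the 16 FA dams (both SD) (log2 fold change -0.23, n = 31, p = 0.0221). *Ahcyl2*, related to the hydrolase of S-adenosylhomocysteine, had -0.34 for diet (n = 31, p = 0.0314) and -0.40 for fluoxetine (n = 31, p = 0.012). *Folr2*, a folate receptor of macrophages, had 1.13 for diet (n = 31, p = 0.0158), and 0.67 with n = 30 (p = 0.0993) without dam 3 of FA diet + fluoxetine. *Tyms* was the other gene, with 0.38 (n = 31, p = 0.0413).

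Proteins that bind CpG without the mark, or that set H3K4 methylation there, form a list of 8 genes. Of these, 1 had a positive diet value, and the median was -0.11, beside 0.017 for all genes. An unadjusted p of 0.05 or below was reached by 2, both lower, beside 5.08% of all genes (2.12% in the lower direction). For the interaction 7 of the 8 had positive values, with a median of 0.39, and 3 had an unadjusted p of 0.05 or below, beside 3.84% of all genes. The median of their summed level was 127 and 111 CPM in breeder and FA dams under saline, and 131 and 142 CPM under fluoxetine. *Setd1b*, an H3K4 methyltransferase, had 12.8 ± 3.02 CPM in the 15 breeder diet dams and 9.87 ± 1.66 CPM in the 16 FA dams (both SD) (log2 fold change -0.35, n = 31, p = 0.00133, adjusted p = 0.933 by edgeR). *Kmt2b*, of the same family, had -0.30 (n = 31, p = 0.0368). For fluoxetine, *Setd1a* had 0.36 (n = 31, p = 0.0102).

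Imprinted genes are known to depend on DNA methylation. Of 17, 14 were tested, and 2 had an unadjusted diet p of 0.05 or below, both with positive values, beside 2.95% of all genes in that direction. *Nnat* had 0.949 ± 0.685 CPM in the 15 breeder diet dams and 2.75 ± 2.80 CPM in the 16 FA dams (both SD) (log2 fold change 1.58, n = 31, p = 0.00182, adjusted p = 0.933 by edgeR), and 1.10 with n = 30 (p = 0.0099) without dam 3 of FA diet + fluoxetine. *Snrpn* had 0.27 (n = 31, p = 0.0297). For fluoxetine, *Mest* had the smallest p, at -1.0 (n = 31, p = 0.0103). Germline genes that DNA methylation keeps silent in other tissues had 536 counts in all over 12 genes and 31 dams, with 3 genes at 0 counts, and only *Sycp3* (296 counts) had enough for a test, with a diet log2 fold change of -0.30 (n = 31, p = 0.506).

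Among cell type markers, 6 of 6 stromal genes had positive diet values, with a median of 0.55 (4 of 6 and 0.025 without dam 3 of FA diet + fluoxetine), led by *Lum* (0.78, n = 31, p = 0.018) and *Dcn* (0.75, p = 0.0259), which were 0.17 and 0.13 without it. No gene of the secretory, epithelial, adipocyte, leukocyte, endothelial or skeletal muscle lists had an unadjusted diet p of 0.05 or below, beside 5.08% of all genes. For fluoxetine the share of all genes was 9.92%, and 3 of these lists had 1 such gene each. They were the secretory (*Csn3*, -0.44), epithelial (*Krt18*, 0.24, and 0.14 without dam 3 of FA diet + fluoxetine) and adipocyte (*Fabp4*, 0.42, and 0.23 without that dam) lists. The secretory list had 0 of 10 positive fluoxetine values, with a median of -0.17. Without dam 3 of FA diet + fluoxetine it had 1 of 10, with a median of -0.10. Of the stromal genes, 4 of 6 had positive fluoxetine values, with a median of 0.072 and 0 at a p of 0.05 or below. DESeq2 gave 0 positive values and 3 stromal genes with such a p, beside 1559 of all 14362 genes. Without dam 3 of FA diet + fluoxetine, 0 stromal genes were positive by edgeR, with a median of -0.49. In that fit 5 of them had such a p, beside 1312 of all 14247 genes.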
